A study of Mus musculus with 8 samples.

Results

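The proteasome genes of mouse gastric squamous-columnar junction (SCJ) cancers were compared with those of normal SCJ tissue. The members were the rows of the RNA-seq table whose symbol starts with Psma to Psmg followed by a digit, without the immunoproteasome genes Psmb8, Psmb9 and Psmb10. This rule took 46 of 23361 genes. Of these, 45 encode subunits, assembly chaperones or regulators of the proteasome. The remaining gene, Psmc3ip, shares the letters of the symbol but encodes a meiotic recombination factor, and it is counted with the members and described apart. The Cancer group held 5 SCJ cancers labelled Trp53-/-Rb1-/-. Their mice carried an Lgr5-driven, tamoxifen-inducible Cre (Lgr5-eGFP-Ires-CreERT2), floxed Trp53 and Rb1 and the Ai9 tdTomato reporter, and the cancers were taken many months after tamoxifen, given to young adult mice. Recombination was thus directed to Lgr5+ cells and their progeny, and the tumour border was drawn by tdTomato. The Control group held the SCJ of 3 age-paired mice labelled wild type. Sex and exact age of the single animals are not given in the sources used here. The study's methods give tamoxifen to control mice too, without naming the wild type mice of these samples. Each sample was whole dissected tissue, so that cells without the deletion are also in the cancers, and fewer cells of a type cannot be told apart from less RNA per cell.

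The 26S proteasome is the protease that degrades proteins tagged with ubiquitin. Its 20S core is a barrel of alpha and beta rings in which PSMB5, PSMB6 and PSMB7 cut the substrate, and the 19S regulatory particle, made of a base with 6 ATPases and a lid, binds, unfolds and feeds in the tagged protein. Dedicated chaperones build the core and the base, and other caps, the PA28 complexes and PA200, can replace the 19S particle. Subunit genes are widely expressed and are known to be induced together by the transcription factor NFE2L1 when proteasome activity is short.

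Values are FPKM, a measure of fragments per transcript length and library size, rounded to whole numbers. The option by which the library size was set, on which the scale of each column rests, is not given in the sources used here. They summed to between 403569 and 573858 in the cancers and between 887141 and 992550 in the controls. The 10 most abundant genes held 11.1% to 19.6% of this sum in the cancers and 39.3% to 44.3% in the controls. The results are therefore set on 2 scales, the FPKM as deposited and the FPKM of each sample rescaled to a sum of 1000000 ("equal sums"). Fold changes are cancer minus control on log2(FPKM + 1), given ± their standard error. On this scale the rescaling moved the median fold change of all 14357 tested genes from -0.04 to 0.81. Of the deleted genes, Rb1 had FPKM of 4, 4, 5, 6 and 4 in cancers 1 to 5 against 9, 9 and 10 in the controls. Trp53 had 12, 22, 12, 30 and 12 against 16, 17 and 19. Per-gene values do not separate the deleted exons. The summed FPKM of 9 gastric gland markers (such as the gastrokines and trefoil factors) was 694, 78668, 6009, 55535 and 16636 in cancers 1 to 5 and 158512 to 240732 in the controls. Cancers 2 and 4 thus stood nearest to the controls in these markers. In squamous markers cancer 4, at 1588, lay within the controls (1533 to 2572) and the other cancers between 0 and 476, with cancer 2 at 16. In smooth muscle markers cancer 2, at 1230, lay above all other samples (23 to 401). Cancer 1 had a summed leukocyte marker level of 121, against 13 to 31 in cancers 2 to 5 and 9 to 10 in controls. Cancer 5 had a summed hepatocyte marker level of 456, against 1 to 58 elsewhere. The 5 endocrine markers summed to 7746 to 17202 in the cancers and 123 to 185 in the controls. The 4 endothelial markers summed to 12 to 38 and 6 to 9. The pepsinogen gene Pgc was listed at 28832 in control 1 and at 0 in controls 2 and 3, where a 0 may be a failed estimate.

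On the deposited scale most proteasome genes lay slightly below the controls, and on equal sums most lay above them, while on both scales their median lay below that of all genes, though not under quantile normalization. Of 44 members tested, 8 were lower in the cancers past an adjusted p of 0.05 in limma, where 18.3% of all tested genes were lower, and 1 was higher, where 16.2% of all genes were. The lower genes were the 19S genes Psmc1, Psmd2, Psmd3, Psmd8, Psmd11 and Psmd13 and the activator genes Psme3 and Psme4, and the higher gene was the core chaperone gene Psmg4. These 9 calls fell to 2, 3 and 5, all lower, without control 1, 2 and 3. Over all genes the calls fell as well, from 4948 to 2548, 2700 and 2874. Under quantile normalization 2 members were higher (Psmg2 and Psmg4) and 1 was lower (Psme4) in limma, where 1891 and 1902 of all genes were. On the deposited scale the log2 fold change was below 0 for 37 of the 44, with a median of -0.30. That median was -0.17 without control 1 and turned to 0.15 under quantile normalization. Relative to the median of all genes the member median was -0.26 on the deposited scale, -0.083 among genes with a mean FPKM of at least 5, -0.14 without control 1 and 0.16 under quantile normalization. On equal sums the direction flipped: 31 members were higher, where 50.0% of all genes were, and 0 were lower in limma, where 3.68% of all genes were, with 0 lower also at an unadjusted p under 0.05. The median there was 0.67, or -0.14 relative to all genes, which became -0.038 among genes with a mean FPKM of at least 5 and -0.031 without control 1. The count of higher members was 20 without control 3, where the count of higher genes in the whole table fell from 7176 to 4659. Groups did not overlap for 9 members on the deposited scale, 1 of them higher in every cancer (14.4% of all genes) and 8 lower in every cancer (19.8%). On equal sums 30 members were higher in every cancer (49.6%) and 0 were lower in every cancer (4.51%). A two-sided exact permutation test of 5 against 3 samples, with 56 arrangements, cannot give a p below 0.018, and no gene of the table had an adjusted p under 0.05 in it on either scale. Its unadjusted p was under 0.05 for 9 members on the deposited scale, where it was for 33.4% of all genes, and for 32 on equal sums, where it was for 50.4%.

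**Figure D1:**
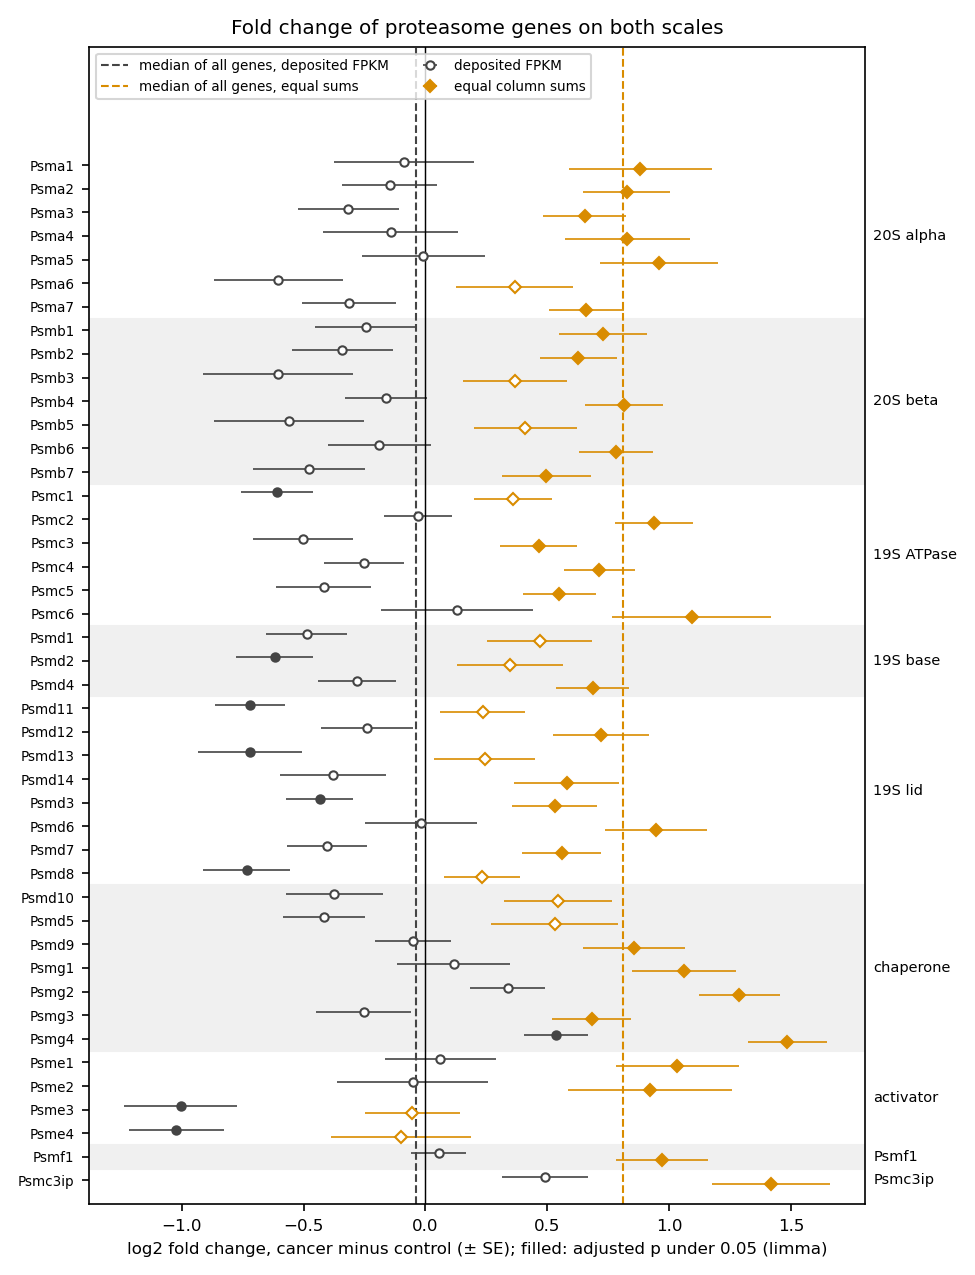
Log2 fold change (cancer minus control, horizontal axis) with its standard error for the 44 members tested, ordered by role; grey circles are deposited FPKM, orange diamonds equal sums, filled symbols have an adjusted p under 0.05 in limma, and dashed lines mark the medians of all genes (-0.04 and 0.81). Most members lie left of 0 on the deposited scale and right of 0 on equal sums; Psmg4 stands farthest right on both, and Psme3 and Psme4 farthest left on both.

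The direction for the whole set turned with the scaling of the columns. The 45 proteasome genes summed to FPKM of 2547, 3463, 2789, 3534 and 2950 in cancers 1 to 5 and 4687, 3462 and 3385 in controls 1 to 3. Expressed as a share of the column sum, this was 0.633% ± 0.021 (SD, n = 5) in the cancers and 0.407% ± 0.076 (SD, n = 3) in the controls, with no overlap, the lowest cancer at 0.603% and the highest control at 0.490%. After the 10 most abundant genes of each sample were left out of the sum, the share was 0.757% ± 0.014 (SD, n = 5) and 0.701% ± 0.099 (SD, n = 3), and the control values of 0.808%, 0.683% and 0.612% spanned the cancers, which lay between 0.744% and 0.773%. On that scale 3 members (Psmg2, Psmg4 and Psmc3ip) were higher in limma, where 21.9% of all genes were, and 0 were lower, where 8.47% were.

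**Figure D2:**
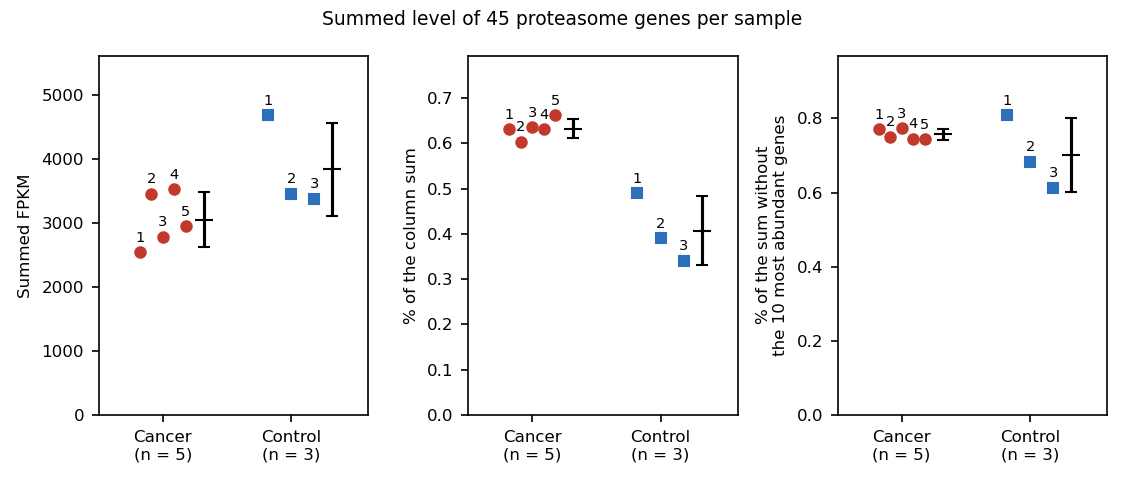
Summed level of 45 proteasome genes in each sample, as FPKM (left), as a percentage of the column sum (middle) and as a percentage of the sum without the 10 most abundant genes (right); points are samples with their number, bars are the mean ± SD. The groups separate in the middle panel, while in the right panel the controls, from 0.612% to 0.808%, reach both above and below the cancers.

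Promoter sequences were examined for the members, since many of these genes are known to share control. RefSeq (GRCm38.p6) gave a window of 300 bases, 250 before to 50 after the annotated start, for 38 of the 46 members, and for 35 of these the annotated start lies within 100 bases of the gene start in the deposited table. Searched on both strands, CCGGAAG, the core of the ETS factor motif, stood in 14 of the 38 windows (36.8%), in 9.1% of the windows of all 27025 genes and in 16.6% of the windows of tested genes. The matches were unevenly spread over the roles: 0 of 12 core windows, 9 of 14 windows of the 19S particle, 2 of 6 chaperone windows and 2 of 4 activator windows held it. TGACNNNGC, the core of the antioxidant response element to which NFE2L1 and NFE2L2 bind, stood in 6 windows (15.8%; all genes 12.4%, tested genes 14.6%), those of Psmb5, Psmb6, Psmc6, Psmd12, Psmd9 and Psme4. CCAAT, the NF-Y motif, stood in 36.8% (all genes 37.8%, tested genes 37.9%). TTTNNCGC, an E2F motif, stood in 13.2% (all genes 5.3%, tested genes 8.2%), and GGGCGG, the SP factor motif, in 57.9% (all genes 35.6%, tested genes 62.0%). Matches of different motifs overlapped in 3 members, Psmc4, Psmd9 and Psme4. A match of letters is not a measured binding site. The stretches printed are those of the catalytic genes with the TGACNNNGC letters, of 5 genes of the lid, base and activators with CCGGAAG that were lower on the deposited scale (Psmc1, also with a match, is left out because its annotated start lies 2129 bases from that of the table), of Psmg1, a chaperone gene with CCGGAAG that did not pass there, and of Psmg4, the higher gene, each in the direction of its gene with the match to the named motif in capitals; matches to other motifs are left in lower case.
Psmb5, TGACNNNGC, chr14:54618009-54618068, minus strand: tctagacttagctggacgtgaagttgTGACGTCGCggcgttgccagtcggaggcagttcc
Psmb6, TGACNNNGC, chr11:70525307-70525366, plus strand: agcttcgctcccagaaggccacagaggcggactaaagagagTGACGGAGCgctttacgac
Psmd2, CCGGAAG on the opposite strand, chr16:20651599-20651658, plus strand: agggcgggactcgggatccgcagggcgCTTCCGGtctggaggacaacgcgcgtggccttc
Psmd11, CCGGAAG on the opposite strand, chr11:80428565-80428624, plus strand: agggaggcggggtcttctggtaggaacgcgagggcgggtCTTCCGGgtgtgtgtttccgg
Psmd13, CCGGAAG, chr7:140882344-140882403, plus strand: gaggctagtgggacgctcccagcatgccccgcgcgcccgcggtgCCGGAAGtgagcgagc
Psme3, CCGGAAG, chr11:101316079-101316138, plus strand: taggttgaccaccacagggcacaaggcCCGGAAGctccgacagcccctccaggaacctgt
Psme4, CCGGAAG, chr11:30771695-30771754, plus strand: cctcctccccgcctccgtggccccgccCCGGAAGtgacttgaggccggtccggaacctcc
Psmg1, CCGGAAG, chr16:95990997-95991056, minus strand: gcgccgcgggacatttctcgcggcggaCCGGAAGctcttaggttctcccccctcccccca
Psmg4, GGGCGG on the opposite strand, chr13:34162908-34162967, plus strand: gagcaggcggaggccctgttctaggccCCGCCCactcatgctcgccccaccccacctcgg
The match begins 47 bases before the annotated start in Psmb5, 9 in Psmb6, 26 in Psmd2, 11 in Psmd11, 6 in Psmd13, 107 in Psme3, 53 in Psme4 and 69 in Psmg1. Of the 14 members with CCGGAAG, 13 have a match no farther than 100 bases upstream of the start. Psmc2, Psmc6, Psmd4, Psmd6, Psmd12, Psmg1, Psmg3 and Psmc3ip hold the motif and did not pass on the deposited scale. The window of the lower gene Psmd8 does not hold it, and Psmd3, also lower, has no window. A relation between the motif and the fold change was not tested.

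The 14 tested genes of the 20S core included 13 of the 15 most abundant members, and no difference passed the test on the deposited scale. None of the 14 passed in limma, where 18.3% of all genes were lower and 16.2% higher, and 0 had an unadjusted p under 0.05. By the exact test 0 had an unadjusted p under 0.05, against 33.4% of all genes. All 14 fold changes were below 0, from -0.60 to -0.01 (median -0.28), while 6930 of the 14357 genes tested were above 0. On equal sums 11 of 14 were higher, where 50.0% of all genes were, and all 14 were above 0, as were 11590 of the 14357 genes tested. Their median was 0.69, or -0.12 relative to all genes. Psmb4, a structural beta subunit, had the highest level of all members, with FPKM of 180, 232, 198, 220 and 215 in cancers 1 to 5 against 256, 188 and 262 in controls 1 to 3. The cancers, from 180 to 232, overlapped the controls. Its log2 fold change was -0.16 ± 0.17 (adjusted p = 0.475 in limma), and on equal sums it was higher (0.81, adjusted p = 0.0041 in limma).

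The chymotrypsin-like subunit is encoded by Psmb5, which lies on chromosome 14 from 54614120 to 54617995 (mm10). Its FPKM were 68, 143, 75, 160 and 102 in cancers 1 to 5 against 162, 133 and 167 in controls 1 to 3. Cancers 2 and 4 lay within the range of the controls and the other cancers below it, and the log2 fold change of -0.56 ± 0.31 did not pass (adjusted p = 0.184 in limma). The caspase-like subunit gene Psmb6 had 82, 130, 90, 137 and 93 against 136, 110 and 112, again with cancers 2 and 4 highest (log2 fold change -0.19 ± 0.21, adjusted p = 0.503 in limma). The trypsin-like subunit gene Psmb7 had 92, 155, 106, 146 and 112 against 214, 159 and 137, with a log2 fold change of -0.48 ± 0.23 (adjusted p = 0.14 in limma). Without cancers 2 and 4, a choice made after seeing the data, Psmb5, Psmb6 and Psmb7 were lower, where 24.5% of all genes were. Their values were then -0.92, -0.43 and -0.69 (adjusted p = 0.016, 0.034 and 0.037 in limma). On equal sums the fold changes were 0.41 for Psmb5, 0.78 for Psmb6 and 0.50 for Psmb7, of which those of Psmb6 (adjusted p = 0.0038 in limma) and Psmb7 (adjusted p = 0.045 in limma) passed, and that of Psmb7 was lost when any 1 cancer, control 2 or control 3 was left out. GENCODE vM21 has pseudogenes named after Psmb5 (1), Psmb6 (2) and Psmb7 (1), and copies under other names were not counted. How reads that fit both copies were counted is not given in the sources used here.

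None of the remaining core genes passed on the deposited scale. Psma5, the highest of the alpha subunits by fold change, had FPKM of 57, 82, 66, 76 and 69 in cancers 1 to 5 against 107, 65 and 49 in controls 1 to 3 (log2 fold change -0.01 ± 0.25). The cancers all lay within the range of the controls, and on equal sums the gene was higher (0.96, adjusted p = 0.011 in limma). Psma6, the lowest, had 83, 122, 89, 114 and 79 against 211, 148 and 100 (-0.60 ± 0.27, adjusted p = 0.111 in limma); the locus in the deposited table spans more than this gene, so its level may include reads of a neighbour. Psmb3 had 96, 201, 125, 214 and 130 against 272, 168 and 243 (-0.60 ± 0.31, adjusted p = 0.156 in limma), with cancers 2 and 4 again within the controls. On equal sums neither Psma6 (0.37, adjusted p = 0.213 in limma) nor Psmb3 (0.37, adjusted p = 0.161 in limma) passed. On the deposited scale cancers 2 and 4 lay above the other 3 cancers for 14 of 14 core genes, against 8 of 17 genes of the 19S particle and 17.1% of all genes. These cancers have the largest column sums and the most gland marker RNA of the 5, and the part of either in the level of the core genes was not tested. On equal sums they lay above the others for 4 of 14 core genes, 1 of 17 genes of the 19S particle and 9.42% of all genes. Psma8, the testis-specific alpha subunit, and Psmb11, the beta subunit of the thymic cortex, were listed at 0 in all 8 samples and were not tested.

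**Figure D3:**
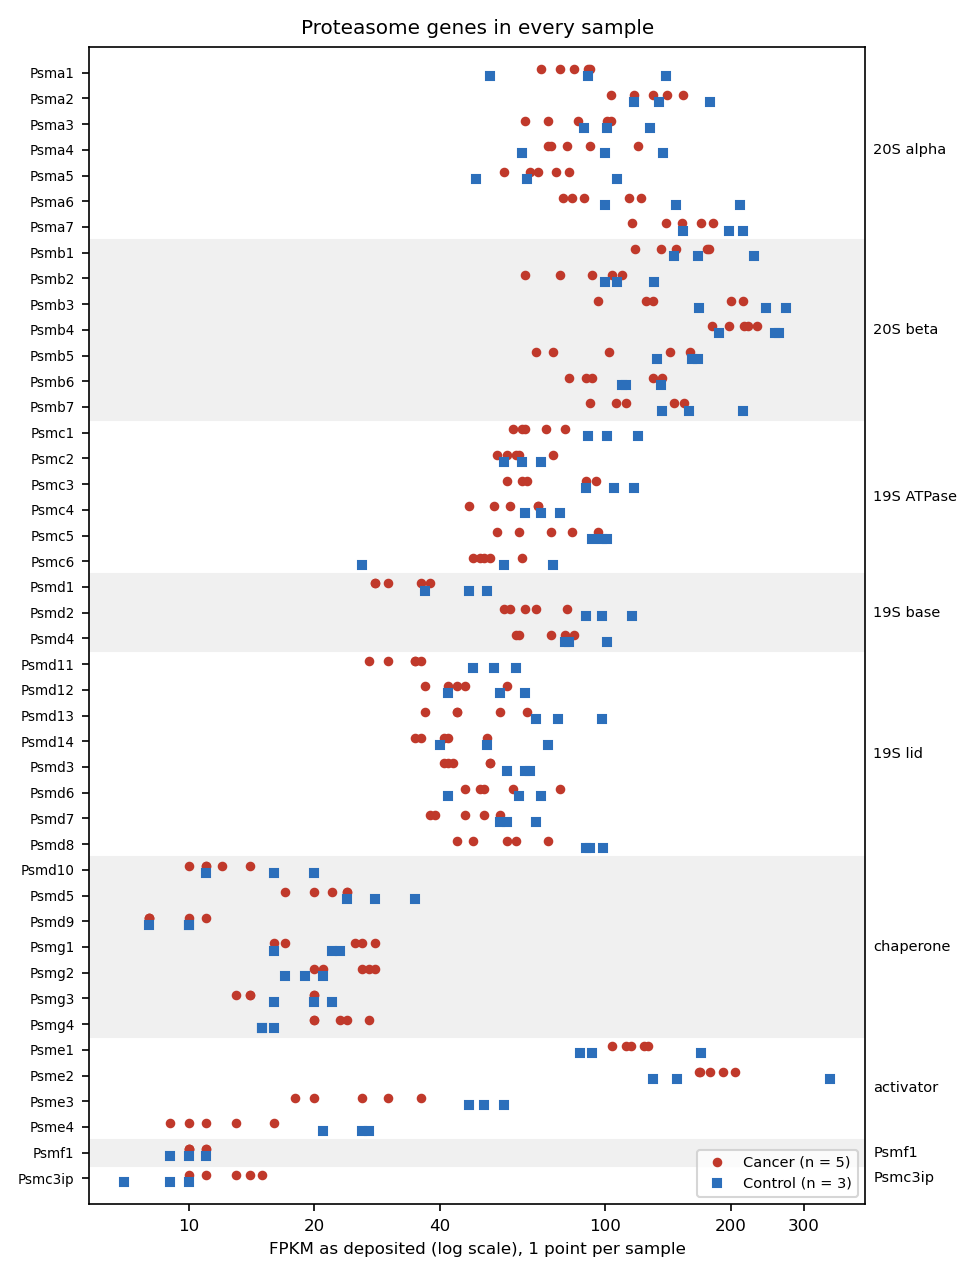
FPKM as deposited (log axis) of the 44 members tested in each of 5 cancers (red circles) and 3 controls (blue squares), ordered by role. Most core genes and Psme1 and Psme2 lie highest, and the chaperones, Psme4, Psmf1 and Psmc3ip lowest; the groups are apart for Psmc1, Psmd2, Psmd3, Psmd8, Psmd11, Psmd13, Psme3 and Psme4, with cancers lower, and for Psmg4, with cancers higher.

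Among the 17 genes of the 19S particle, 6 were lower in the cancers on the deposited scale (all genes 18.3%) and 0 were higher in limma (all genes 16.2%; 0 members also at an unadjusted p under 0.05). On equal sums 11 were higher (all genes 50.0%) and 0 were lower. In the base, which holds the ATPase ring and the ubiquitin receptors, 2 of 9 passed. The ATPase gene Psmc1 had FPKM of 64, 80, 63, 72 and 60 in cancers 1 to 5 against 120, 101 and 91 in controls 1 to 3. Every cancer lay below every control, with a log2 fold change of -0.61 ± 0.15 (adjusted p = 0.019 in limma). Psmd2, which encodes the scaffold RPN1 that docks ubiquitin shuttle proteins, had 64, 68, 59, 57 and 81 against 116, 98 and 90, also without overlap (-0.62 ± 0.16, adjusted p = 0.021 in limma). Both calls were lost when control 1 or control 2 was left out, with adjusted p between 0.058 and 0.079 in limma. They were also lost under quantile normalization, at -0.12 for Psmc1 and -0.13 for Psmd2 (adjusted p = 0.559 and 0.616 in limma). At the other end, the ATPase gene Psmc6 had 48, 50, 53, 63 and 51 against 75, 57 and 26, with all cancers inside the wide range of the controls (0.13 ± 0.31, adjusted p = 0.768 in limma). The ubiquitin receptor gene Psmd4 had 62, 80, 61, 84 and 74 against 101, 80 and 82 (-0.28 ± 0.16, adjusted p = 0.197 in limma). On equal sums Psmc6 and Psmd4 were higher (1.09 and 0.69, adjusted p = 0.022 and 0.0062 in limma), whereas Psmc1 (0.36, adjusted p = 0.084) and Psmd2 (0.35, adjusted p = 0.194) did not pass.

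In the lid 4 of 8 genes were lower on the deposited scale, where 18.3% of all genes were; the activators had 2 of 4. Psmd11 (chromosome 11, 80428615 to 80472133), which encodes RPN6, a clamp between the lid and the core, had FPKM of 30, 35, 27, 35 and 36 in cancers 1 to 5 against 61, 54 and 48 in controls 1 to 3. The means were 32.6 ± 3.9 (SD, n = 5) and 54.3 ± 6.5 (SD, n = 3), and no cancer reached the lowest control. The log2 fold change was -0.72 ± 0.14 (adjusted p = 0.0092 in limma; exact p = 0.018, the smallest possible), and it passed in limma with each sample left out in turn. Under quantile normalization it was -0.30 and did not pass (adjusted p = 0.147 in limma). Psmd8, which encodes RPN12, had 48, 73, 44, 58 and 61 against 92, 90 and 99 (-0.73 ± 0.18, adjusted p = 0.018 in limma). Here the highest cancer lay well below the lowest control, but the adjusted p rose to between 0.055 and 0.064 without any 1 control. Psmd13 had 44, 65, 37, 44 and 56 against 98, 68 and 77 (-0.72 ± 0.21, adjusted p = 0.036 in limma), and Psmd3 had 43, 53, 41, 42 and 53 against 64, 58 and 66 (-0.43 ± 0.14, adjusted p = 0.045 in limma). These groups came close, and both calls were lost when any of cancers 1, 3 and 4 or any control was left out. Psmd6 was nearest to no difference, with 46, 60, 51, 78 and 50 against 70, 62 and 42 (-0.02 ± 0.23). On equal sums Psmd3 turned to higher (0.53, adjusted p = 0.033 in limma), a call that did not hold without any 1 of cancers 1, 3 and 5 or of the controls (adjusted p up to 0.091). Psmd6 was higher on equal sums (0.95, adjusted p = 0.0067 in limma), while Psmd8, Psmd11 and Psmd13 had values of 0.23, 0.23 and 0.24 that did not pass, or -0.58, -0.58 and -0.57 relative to all genes.

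The assembly chaperones had a median log2 fold change of -0.05 on the deposited scale, against -0.28 for the core and -0.42 for the 19S particle. Under quantile normalization the medians were 0.027, 0.20 and 0.024, so that the core lay highest; the difference between roles was not tested. Of 7 chaperone genes, 1 was higher (all genes 16.2%) and 0 were lower (all genes 18.3%) in limma, with 1 lower at an unadjusted p under 0.05. On equal sums 5 were higher (all genes 50.0%). Psmg4 (chromosome 13, 34162977 to 34178172), which encodes PAC4, a partner of PAC3 in building the alpha ring, had FPKM of 20, 23, 24, 27 and 20 in cancers 1 to 5 against 16, 15 and 15 in controls 1 to 3. Every cancer lay above every control, with means of 22.8 ± 2.9 (SD, n = 5) and 15.3 ± 0.6 (SD, n = 3). The log2 fold change was 0.54 ± 0.13 (adjusted p = 0.019 in limma; exact p = 0.018) on the deposited scale and 1.49 ± 0.16 (adjusted p = 6.3e-04 in limma) on equal sums, or 0.67 relative to all genes there. On the deposited scale the adjusted p rose to between 0.051 and 0.067 without any 1 control, while on equal sums the call held with each sample left out. By rank among tested genes, which no rescaling of a column changes, Psmg4 lay at percentile 75.3 to 82.4 in the cancers and 66.5 to 67.2 in the controls. The median tested FPKM was 7 or 8 in every sample, so that rank is tied to the deposited FPKM by which the gene was named.

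The other chaperones of the alpha ring were named after their values were seen. Psmg3, the partner of Psmg4, had FPKM of 14, 20, 14, 20 and 13 against 22, 16 and 20, and did not pass on the deposited scale (-0.25 ± 0.19, adjusted p = 0.327 in limma). The ratio of Psmg4 to Psmg3, which does not depend on the scale of a column, was 1.43, 1.15, 1.71, 1.35 and 1.54 in cancers 1 to 5 against 0.727, 0.938 and 0.75 in controls 1 to 3, without overlap. The ratio of Psmg4 to the core gene Psma5 did overlap, from 0.28 to 0.364 in the cancers against 0.15, 0.231 and 0.306 in controls 1 to 3. Psmg2, which encodes PAC2, had 20, 27, 28, 26 and 21 against 19, 17 and 21 (0.34 ± 0.15, adjusted p = 0.121 in limma), and was higher on equal sums (1.29, adjusted p = 0.001 in limma). Its partner Psmg1 had 16, 26, 25, 28 and 17 against 23, 22 and 16 (0.12 ± 0.23, adjusted p = 0.715 in limma), with cancers 1 and 5, at 16 and 17, close to control 3. On equal sums Psmg1 (1.06, adjusted p = 0.0044 in limma) and Psmg3 (0.68, adjusted p = 0.0092 in limma) were higher as well. The ratio of Psmg2 to Psmg1 overlapped between the groups, from 0.929 to 1.25 in the cancers against 0.826, 0.773 and 1.31 in controls 1 to 3. When each sample was instead centred on the mean of the members, a choice made after seeing the data, 3 members were higher in limma, namely Psmg2 (0.62, adjusted p = 0.048), Psmg4 (0.82, adjusted p = 0.012) and Psmc3ip (0.77, adjusted p = 0.035), where 19.8% of all genes were higher. In the same fit Psme3 was lower (-0.72, adjusted p = 0.041 in limma), where 10.5% of all genes were lower. Psme4 did not pass there (-0.74, adjusted p = 0.052 in limma). Among the chaperones of the base, Psmd5 had 22, 20, 24, 17 and 24 against 35, 28 and 24 and did not pass on either scale (-0.42, adjusted p = 0.09 in limma; 0.53 on equal sums, adjusted p = 0.111). Psmd9 lay between 8 and 11 in all samples, the lowest level of any subunit or chaperone tested, and Psmd10 between 10 and 20.

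**Figure D4:**
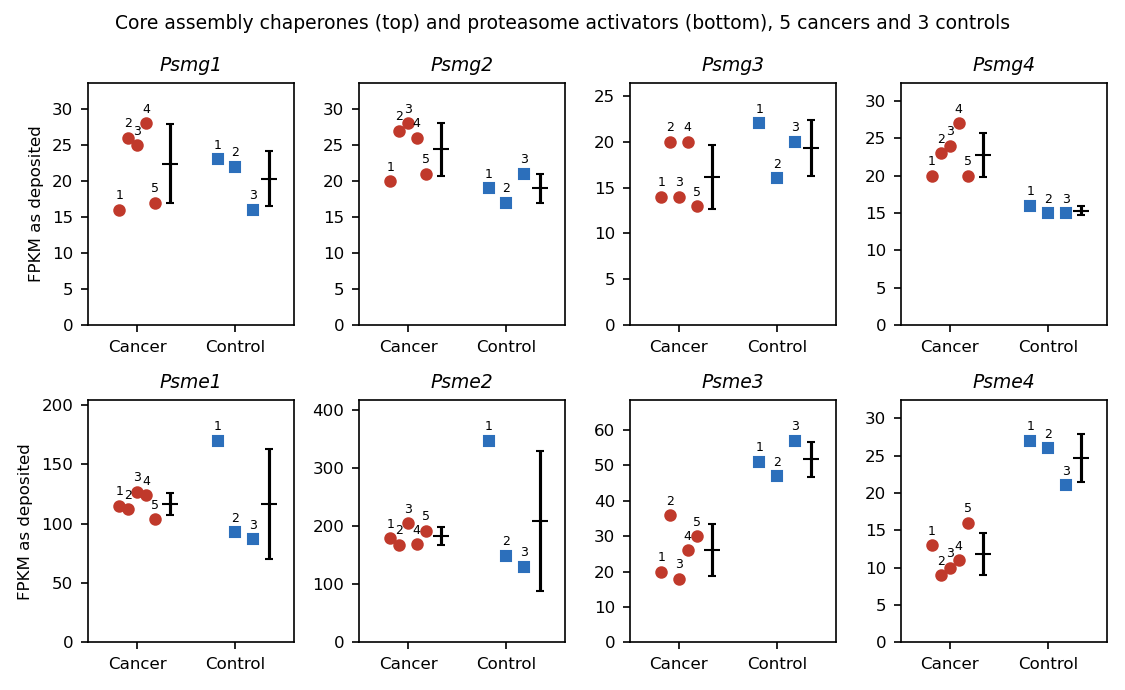
FPKM as deposited of the 4 core chaperone genes Psmg1 to Psmg4 (top) and the 4 activator genes Psme1 to Psme4 (bottom) in each sample; points carry the sample number, bars are the mean ± SD of 5 cancers and 3 controls. Psmg4 is higher in every cancer and Psme3 and Psme4 lower in every cancer, while control 1 sets the highest values of Psme1 and Psme2.

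The activators divided by kind. Psme4, which encodes PA200, the nuclear cap linked to histone breakdown, had FPKM of 13, 9, 10, 11 and 16 in cancers 1 to 5 against 27, 26 and 21 in controls 1 to 3. The means were 11.8 ± 2.8 (SD, n = 5) and 24.7 ± 3.2 (SD, n = 3), with no overlap. Its log2 fold change of -1.02 ± 0.20 (adjusted p = 0.0081 in limma; exact p = 0.018) was the lowest of all members and passed with each sample left out in turn. Psme3, which encodes the nuclear PA28 gamma, had 20, 36, 18, 26 and 30 against 51, 47 and 57 (-1.003 ± 0.23, adjusted p = 0.016 in limma), again with no overlap, but the call was lost without control 1 or control 3 (adjusted p = 0.055 and 0.0605 in limma). On equal sums neither differed beyond the spread (-0.10, adjusted p = 0.771, and -0.05, adjusted p = 0.824, in limma), or -0.91 and -0.86 relative to the median of all genes. By rank, Psme4 lay at percentile 57.1 to 69.9 in the cancers and 73.6 to 78.3 in the controls, and Psme3 at 74.9 to 86.1 and 86.8 to 88.8. These ranks do not overlap for either gene. Both genes were named by deposited FPKM that did not overlap either, and the ranks are tied to those values. The share of all genes with such ranks was not determined.

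The interferon-inducible PA28 pair, which lie 2185 bases apart on chromosome 14, did not follow. Psme1 (PA28 alpha) had FPKM of 115, 112, 127, 124 and 104 in cancers 1 to 5 against 170, 93 and 87 in controls 1 to 3 (0.06 ± 0.23, adjusted p = 0.853 in limma). Psme2 (PA28 beta), named after its values were seen, had 179, 168, 205, 169 and 192 against 347, 149 and 130 (-0.05 ± 0.31, adjusted p = 0.907 in limma). For both genes control 1 was highest, controls 2 and 3 were lowest, and the cancers were alike among themselves. The ratio of Psme3 to Psme1 ran from 0.142 to 0.321 in the cancers, against 0.3, 0.505 and 0.655 in controls 1 to 3, so that the groups overlapped through control 1. On equal sums Psme1 (1.03, adjusted p = 0.01) and Psme2 (0.92, adjusted p = 0.044) were higher in limma, that of Psme2 not without cancer 1, 3 or 5 or control 2 or 3.

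Psmf1, which encodes the inhibitor PI31, varied least, with FPKM of 10, 11, 11, 10 and 10 in cancers 1 to 5 against 11, 9 and 10 in controls 1 to 3 (0.05 ± 0.11, adjusted p = 0.729 in limma). On equal sums it was higher (0.97, adjusted p = 0.004 in limma), or 0.16 relative to all genes. Psmc3ip, which is no proteasome gene, had 13, 11, 14, 15 and 10 against 9, 10 and 7, with cancer 5 level with control 2 (0.49 ± 0.18, adjusted p = 0.061 in limma; 1.42 on equal sums, adjusted p = 0.0025). Leaving it out changed no count of lower members and took 1 from the count of higher members on equal sums, to 30 of 43.

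Levels between genes were compared on the FPKM scale, which is per length. Averaged over the 8 samples, members ranged from 219 for Psmb4 to 9.13 for Psmd9, and of the 15 most abundant, 13 were core genes and 2 were Psme2 and Psme1. The median core gene was 1.73 to 2.44 times the median 19S gene in the 8 samples, with cancers and controls overlapping (1.74 to 2.44 and 1.73 to 2.27). It was 3.73 to 7.08 times the median chaperone in the cancers and 7.16 to 8.53 times in the controls, where control 3, at 7.16, lay just above cancer 4, at 7.08. Control 1 had the highest FPKM of all 8 samples for 30 of the 44 members, and cancer 1 the lowest of the cancers for 24. Without control 1 only Psmd11 and Psme4 remained past the threshold on the deposited scale, where 2548 of all genes did. Without cancers 2 and 4, a choice made after seeing the data, the count of lower members was 16, where 24.5% of all genes were lower. On equal sums without these cancers 29 members were higher, as were 8698 of the 14357 genes tested.

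The immunoproteasome genes, which replace the catalytic subunits after interferon signals, did not pass on either scale. Psmb8 had FPKM of 87, 37, 98, 29 and 87 in cancers 1 to 5 against 108, 24 and 11 in controls 1 to 3 (0.94 ± 0.74, adjusted p = 0.337 in limma). Psmb9 had 43, 36, 65, 24 and 37 against 162, 40 and 26 (-0.50 ± 0.58, adjusted p = 0.517 in limma). Psmb10 had 39, 35, 44, 26 and 27 against 61, 26 and 22 (0.03 ± 0.34, adjusted p = 0.948 in limma). On equal sums the fold changes in limma were 1.91 for Psmb8 (adjusted p = 0.062), 0.46 for Psmb9 (adjusted p = 0.52) and 0.99 for Psmb10 (adjusted p = 0.052). Those of Psmb8 and Psmb10 each passed in 2 of the 8 fits that left out 1 sample, and that of Psmb9 in 0. On the deposited scale control 1 was the highest of all samples for all 3. Cancers 2 and 4 were the lowest cancers for Psmb8 and Psmb9 on both scales. The ratio of Psmb8 to its constitutive counterpart Psmb5 was 1.28, 0.259, 1.31, 0.181 and 0.853 in cancers 1 to 5 and 0.667, 0.18 and 0.0659 in controls 1 to 3, so that cancers 2 and 4 lay within the controls and cancers 1, 3 and 5 above them. The ratio of Psmb9 to Psmb6 was highest in control 1, at 1.19, against 0.175 to 0.722 in the cancers and 0.364 and 0.232 in controls 2 and 3. The ratio of Psmb10 to Psmb7 was 0.178 to 0.424 in the cancers and 0.161 to 0.285 in the controls, with overlap.

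Of 29 genes around the proteasome that were listed with it (the immunoproteasome, partner proteins, upstream regulators, ubiquitin genes and ubiquitin receptors), 1 was higher (all genes 16.2%) and 7 were lower (18.3%) on the deposited scale. On equal sums 13 were higher (50.0%) and 1 was lower (3.68%). Without control 1 or 2 the 8 calls on the deposited scale fell to 4 or 5, while those over all genes fell from 4948 to 2548 or 2700. Without control 2 or 3 the 14 calls on equal sums fell to 7, while those over all genes fell from 7704 to 5232 or 4931. Their median log2 fold change was -0.41 on the deposited scale and 0.54 on equal sums; the former was -0.23 without control 1 and -0.033 under quantile normalization. Among the regulators, Nfe2l1, the activator of proteasome genes, had FPKM of 50, 44, 50, 42 and 65 in cancers 1 to 5 against 49, 53 and 63 in controls 1 to 3 and did not pass on the deposited scale (-0.14 ± 0.17, adjusted p = 0.545 in limma), but was higher on equal sums (0.83, adjusted p = 0.023 in limma), a call lost without cancer 3 or any 1 control. Nfe2l2, the oxidative stress factor, had 19, 99, 39, 109 and 51 against 323, 275 and 271. It was lower in every cancer on both scales (-2.42 ± 0.54, adjusted p = 0.014, and -1.47 ± 0.42, adjusted p = 0.019, in limma), with the least difference in cancers 2 and 4, which also had the most gland marker RNA; the part of the gland cells was not tested. The call was lost without control 1 on the deposited scale and without any 1 control on equal sums.

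Ubqln2, which encodes a ubiquilin that carries ubiquitinated proteins to the proteasome, had FPKM of 73, 37, 99, 44 and 64 in cancers 1 to 5 against 12, 14 and 16 in controls 1 to 3. It was higher in every cancer on both scales (2.02 ± 0.32, adjusted p = 0.004, and 3.00 ± 0.40, adjusted p = 0.0012, in limma), also with each sample left out. Its relative Ubqln1 had 30, 35, 25, 34 and 39 against 52, 56 and 52 and was lower on the deposited scale (-0.71 ± 0.16, adjusted p = 0.013 in limma), but had a value of 0.25 on equal sums that did not pass (adjusted p = 0.272). The polyubiquitin gene Ubb had 227, 208, 223, 204 and 191 against 185, 159 and 147, each cancer above each control, with an adjusted p of 0.072 in limma on the deposited scale (0.37) and 0.0017 on equal sums (1.34). Uba1, which encodes the main ubiquitin-activating enzyme, had 65, 73, 54, 58 and 69 against 92, 98 and 110 and was lower on the deposited scale (-0.64 ± 0.14, adjusted p = 0.013 in limma), also with each sample left out. It did not pass on equal sums (0.32, adjusted p = 0.157 in limma) or under quantile normalization (-0.17, adjusted p = 0.499 in limma). Among the partners, Akirin2, the nuclear import factor of proteasomes, lay between 22 and 26 in the cancers and between 20 and 26 in the control samples (0.11, adjusted p = 0.507 in limma), and was higher on equal sums (1.06, adjusted p = 0.0037 in limma). AI314180, the mouse ECM29 gene, had 16, 11, 18, 17 and 21 against 26, 27 and 20 and did not pass on either scale (-0.54, adjusted p = 0.079; 0.39, adjusted p = 0.277, in limma). The other genes lower on the deposited scale were Adrm1, Ngly1, Ubqln4 and Vcp, with log2 fold changes from -0.63 to -0.48. Of these, Adrm1 was higher on equal sums (0.48, adjusted p = 0.025 in limma) and the others did not pass there. The deposited-scale calls were lost without control 2 for Ubqln1, control 3 for Ubqln4, control 1 or 2 for Vcp, cancer 3, control 1 or control 3 for Adrm1, and cancer 1, cancer 3, control 1 or control 2 for Ngly1. That of Adrm1 on equal sums was lost without any 1 control.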

How the data were processed

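Bulk RNA of 5 SCJ cancers and 3 control SCJ was sequenced as poly(A)+ libraries, from a directional NEBNext kit per the labels. The authors trimmed reads with cutadapt 1.8 and quantified UCSC mm10 genes with cuffquant and cuffnorm 2.2.1; the submitters' processing notes also name TopHat2 2.0.13. The normalization option of cuffnorm and the use of strand in counting are not given in the sources used here. The values deposited by the authors are FPKM rounded to whole numbers and are treated as a score: they are not counts, depth is unknown, and no counting interval is given. All 8 value columns were mapped by their names.

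Genes were tested if 3 or more samples had an FPKM of 1 or more. They were compared on log2(FPKM + 1), which understates the change of low genes, with limma 3.58.1 (lmFit, eBayes with trend; R 4.3.3) and Benjamini-Hochberg adjustment over all 14357 genes tested, threshold 0.05. An exact permutation test (two-sided, 56 arrangements) was run per gene. "Equal sums" rescales each column to 1000000. The labels do not say whether each sample came from its own mouse, and p-values measure only the spread between these samples. Named genes were the catalytic subunits, the highest and lowest fold change in each role, every member past the threshold on the deposited scale, members not past it on equal sums (the 6 lowest) and members under the filter. Psmg1, Psmg2, Psmg3, Psme2, Psmd9, Psmd10, Adrm1, Ngly1, Ubqln4 and Vcp were named after their values were seen. The members, gene lists, markers and motifs were chosen with earlier results of these data known. Of 30 pathway entries 29 were found in the table, and 1 further gene is not reported here. Starts of loci were raised by 1 to count from 1. For promoters, 1 window per gene was used.

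Alternatives were a pseudocount of 0.1, a mean FPKM of at least 5, no filter, eBayes without trend, a replicate block, quantile normalization, median-of-ratios scaling and leaving out each sample. Centring on the members, leaving the 10 most abundant genes out of the sum and leaving out cancers 2 and 4 were chosen after seeing the data.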

Additional observations from a re-analysis of the deposited data

Results flagged for a closer look

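Of 66 results looked at within the cancers, where chance alone would flag 3.3, 1 had a sample far from the others. The results were single genes and the summed levels of roles, which are made of the same genes. Akirin2 had FPKM of 22 in cancer 2 and 25 or 26 in the other cancers, a gap of 0.765 of the range of the group on log2(FPKM + 1). These values are rounded to whole numbers, and the gap is 3 such steps.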

How the results depend on the processing

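The deposited FPKM carry no read depth, and low genes such as Psme4 or Psmd9 move in steps of 1. Samples sharing a number did not deviate together (correlations -0.021, -0.19 and -0.10, against -0.082 to 0.14 for samples of unlike number). Such correlations over 3 controls cannot exclude a pairing, and the numbers were treated as sample names only. With the replicate number as a block, which drops cancers 4 and 5 from the comparison within blocks, 1 member (Psme4) and 0 pathway genes passed on the deposited scale in limma, and 8 and 6 on equal sums. Of all 14357 genes tested, 1534 passed with the block on the deposited scale and 5101 on equal sums. Without cancers 2 and 4 the member count on the deposited scale was 17 and the pathway count on equal sums 22. Over all genes the counts were 6643 on the deposited scale and 9707 on equal sums. Leaving out 1 sample at a time gave 2 to 11 member calls and 4 to 10 pathway calls on the deposited scale, and 20 to 30 and 7 to 16 on equal sums. The same fits gave 2548 to 5232 calls over all genes on the deposited scale and 4931 to 8396 on equal sums. Quantile normalization gave 3 member and 3 pathway calls, with a member median of 0.15, and centring on the members 4 and 3, with a median of -0.01. Over all genes there were 3793 calls under quantile normalization and 4352 after centring. With the 10 most abundant genes left out of the sum, 3 member and 3 pathway genes passed, as did 4363 of all genes. The member median was then 0.14, and the summed share was 0.757% in the cancers and 0.701% in the controls. Another 81 values of this kind under the alternatives stayed within 1.5 times the reported count or within the spread.

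Single genes changed sign 70 times, mostly by scaling. On equal sums, genes below 0 on the deposited scale had log2 fold changes of 0.41 (Psmb5), 0.78 (Psmb6), 0.50 (Psmb7), 0.96 (Psma5), 0.37 (Psma6), 0.81 (Psmb4), 0.37 (Psmb3), 0.36 (Psmc1), 0.69 (Psmd4), 0.35 (Psmd2), 0.95 (Psmd6), 0.23 (Psmd8), 0.53 (Psmd5), 0.23 (Psmd11), 0.24 (Psmd13), 0.53 (Psmd3), 0.46 (Psmb9), 0.39 (AI314180), 0.83 (Nfe2l1), 0.32 (Uba1) and 0.25 (Ubqln1). Leaving the 10 most abundant genes out of the sum turned values on equal sums to -0.12 (Psmb5), -0.034 (Psmb7), -0.16 (Psma6), -0.16 (Psmb3), -0.17 (Psmc1), -0.18 (Psmd2), -0.30 (Psmd8), -0.29 (Psmd11), -0.28 (Psmd13), -0.061 (Psmb9), -0.12 (AI314180), -0.21 (Uba1) and -0.28 (Ubqln1). Quantile normalization turned deposited values to 0.29 (Psmb6), 0.45 (Psma5), 0.34 (Psmb4), 0.19 (Psmd4), 0.41 (Psmd6), 0.011 (Psmd3) and 0.32 (Nfe2l1), centring on the members to 0.095 (Psmb6), 0.28 (Psma5), 0.12 (Psmb4), 0.0032 (Psmd4), 0.26 (Psmd6) and 0.15 (Nfe2l1), and median-of-ratios scaling to 0.094 (Psma5) and 0.083 (Psmd6). Leaving out 1 sample at a time, deposited values ranged from -0.26 to 0.29 (Psma5), -0.30 to 0.44 (Psmc6), -0.23 to 0.13 (Psmd6), -0.11 to 0.36 (Psme1), -0.013 to 0.12 (Psmf1), -1.03 to 0.26 (Psmb9) and -0.25 to 0.47 (Psmb10), and values on equal sums from -0.24 to 0.046 (Psme4), -0.14 to 0.033 (Psme3) and -0.11 to 1.22 (Psmb9). Without cancers 2 and 4, Psme4 was at 0.19 on equal sums. The causes of these changes, beyond the rescaling itself, were not tested.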
